A study of Homo sapiens with 20 samples.

Results

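RAB GTPases are the largest family of small GTPases in human cells and mark the membranes between which vesicles travel. The members described here are the 57 genes, of 19353 genes on the array, whose symbol is RAB followed by a number and at most 1 letter and that have a probe set annotated to that gene alone. RAB34, RAB6C and RAB6D have only probe sets that name several genes and were left out for that reason. Each member is represented by its brightest probe set over all arrays. Levels of mRNA were measured with Affymetrix Human Genome U133 Plus 2.0 arrays in HEK293 cells, a human embryonic kidney line, and the comparison with induction asks which transcripts change when the RNA-binding protein ZFP36 is overexpressed. There were 4 groups of 5 arrays. Induced EGFP-ZFP36 cells carry an EGFP-tagged ZFP36 transgene that doxycycline switches on and received 1 μg/ml doxycycline for 16 h. Mock-induced EGFP-ZFP36 cells carry the same transgene and received the vehicle, water. Parental cells without the transgene received either doxycycline or vehicle. Induced cells were sorted for green fluorescence, while mock-induced cells were sorted with fluorescent cells excluded. Per the methods, doxycycline flasks reached lower confluence, and rounded or floating cells were more frequent in them, so that ZFP36 level, sorting and cell density cannot be told apart in that comparison.

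A RAB protein is active when it holds GTP and inactive when it holds GDP. Exchange factors load GTP, GTPase-activating proteins speed its hydrolysis, and prenyl groups added by the RAB geranylgeranyl transferase anchor the protein in the membrane. On the membrane the active protein recruits effectors such as tethers, motors and sorting adaptors, and SNARE proteins then drive fusion. RAB1 and RAB2 act between endoplasmic reticulum and Golgi, RAB5 and RAB4 on early endosomes, RAB11 and RAB8 in recycling and delivery to the cell surface, RAB7 and RAB9 on late endosomes, and RAB3 and RAB27 in regulated secretion. Many of these have close paralogues with overlapping roles.

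ZFP36 binds AU-rich sequences in 3′ UTRs, and the study located its sites by crosslinking. The part of its site table used here, which was held only in part, lists 3′ UTR clusters of at most 30 bases for 2 members, RAB23 and RAB33B. These clusters are shown because they are sequences of RAB transcripts that were crosslinked to ZFP36, in a separate HEK293 line with a FLAG/HA-tagged ZFP36 and not in the EGFP-ZFP36 cells of the arrays. The coordinates are those of build hg19, the sequences run along the transcript from 5′ to 3′, and capitals mark TATT and ATTTA, searched on the transcript strand only, with overlapping matches joined.
RAB23 at chr6:57054523-57054546, minus strand: ccaaaaatatcatacctaattttt
RAB23 at chr6:57054647-57054667, minus strand: tacattctaattaattcactt
RAB33B at chr4:140395911-140395931, plus strand: cttacaTATTaaacTATTTAc
RAB33B at chr4:140396755-140396778, plus strand: ctatctaacaactaattactaatt
The first RAB33B cluster holds TATT 2 times and ATTTA once, and the other 3 clusters hold neither. Of the 930 listed 3′ UTR clusters of at most 30 bases, counted with no chromosome left out, 76.7% hold TATT and 41.6% hold ATTTA. RAB23, a negative regulator of Hedgehog signalling, read 9.73, 9.73, 9.82, 9.73 and 9.82 on the 5 induced arrays, against 10.89, 10.66, 10.81, 10.77 and 10.99 on the mock-induced arrays. Its induced arrays all lay below its mock-induced arrays, with a difference of −1.06 (SE 0.06, adjusted p = 4.32e-05). RAB33B, a Golgi RAB that binds the autophagy protein ATG16L1, read 8.05, 8.26, 7.86, 7.50 and 7.91 on the induced arrays, against 8.34, 8.67, 8.70, 8.43 and 8.67 on the mock-induced arrays. Its groups did not overlap either, but the difference of −0.64 (SE 0.13) did not pass the test.

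Levels are log2 values after GCRMA normalization, as deposited, and a difference is the induced minus the mock-induced mean on that scale. The lowest deposited level is 2.19, and a gene was tested if at least 1 group averaged above 4.5. Levels of different genes cannot be compared, because each probe set has its own brightness. The tests are limma's moderated test with a Bonferroni-adjusted p over all 10834 genes tested, and rose and fell are used for an adjusted p under 0.01. Of the 57 members, 44 were tested. The 13 others averaged under 4.5 in every group: RAB3C, RAB4B, RAB6A, RAB7B, RAB11B, RAB17, RAB25, RAB33A, RAB37, RAB39A, RAB40A, RAB42 and RAB43. The nearest to the limit from below was RAB39A, whose highest group mean was 4.18, and the nearest from above was RAB30, whose highest was 4.99. RAB6A, a Golgi RAB, and RAB11B, a recycling endosome RAB, averaged 2.46 and 3.70 in induced cells, so that their probe sets read near background here.

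Across the arrays of a group, the tested genes correlated at 0.991 to 0.997. The ZFP36 probe set read 5.42 ± 0.49 in induced cells and 5.36 ± 0.43 in mock-induced cells (SD, n = 5 each) and so gives no check of the induction. Of 8 genes listed as HEK293 markers, 6 had a probe set of their own and all 6 were tested. Their summed level ranged over 58.5 to 59.7 in induced and 55.7 to 56.6 in mock-induced arrays, beside 55.4 to 56.5 in doxycycline-treated and 55.1 to 56.2 in vehicle-treated parental arrays. These sums hold genes that moved in opposite directions: after induction LIN28B fell by 3.01 (SE 0.05, adjusted p = 1.21e-10), NEFL rose by 0.63 (SE 0.05), and PAX2 and NEFM, both under 4.5 on every mock-induced array, were at least 1.29-fold and at least 2.47-fold higher. KRT19 and VIM did not pass. Each of the 5 blood cell markers represented read under 4.5 on every array, and their summed level lay between 10.9 and 11.0 in all groups. Of 7 fibroblast and endothelial markers, 6 read under 4.5 on every array, and the summed level ranged over 21.2 to 21.5 in induced and 17.9 to 18.9 in mock-induced arrays, beside 17.4 to 18.5 in doxycycline-treated and 18.2 to 19.2 in vehicle-treated parental arrays. The remaining one, the collagen gene COL3A1, averaged 8.17 in induced cells, against 5.09 in mock-induced cells. The part of these markers in the results below was not tested.

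After induction, 17 of the 44 RAB members tested fell and 11 rose. These are 38.6% and 25% of the members, against a background of 23.1% lower (2500) and 28.8% higher (3123) among all genes tested. The median difference was 0.13 over the members and 0.20 over all genes tested. In bulk RNA of this kind, fewer cells holding a transcript and less of it per cell cannot be told apart. The arrays of induced and mock-induced cells did not overlap for 39 of 44 members, while the same held for 80% of all genes tested. Centred on poly-A controls instead, the split of the members turned to 19 lower and 8 higher, and that of all genes called to 3245 lower and 1699 higher, with a median of −0.16. The poly-A control probe sets averaged 8.80 ± 0.24 in induced and 8.43 ± 0.18 in mock-induced arrays (SD, n = 5 each), and 8.75 ± 0.26 in doxycycline-treated and 8.39 ± 0.63 in vehicle-treated parental arrays.

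**Figure D1:**
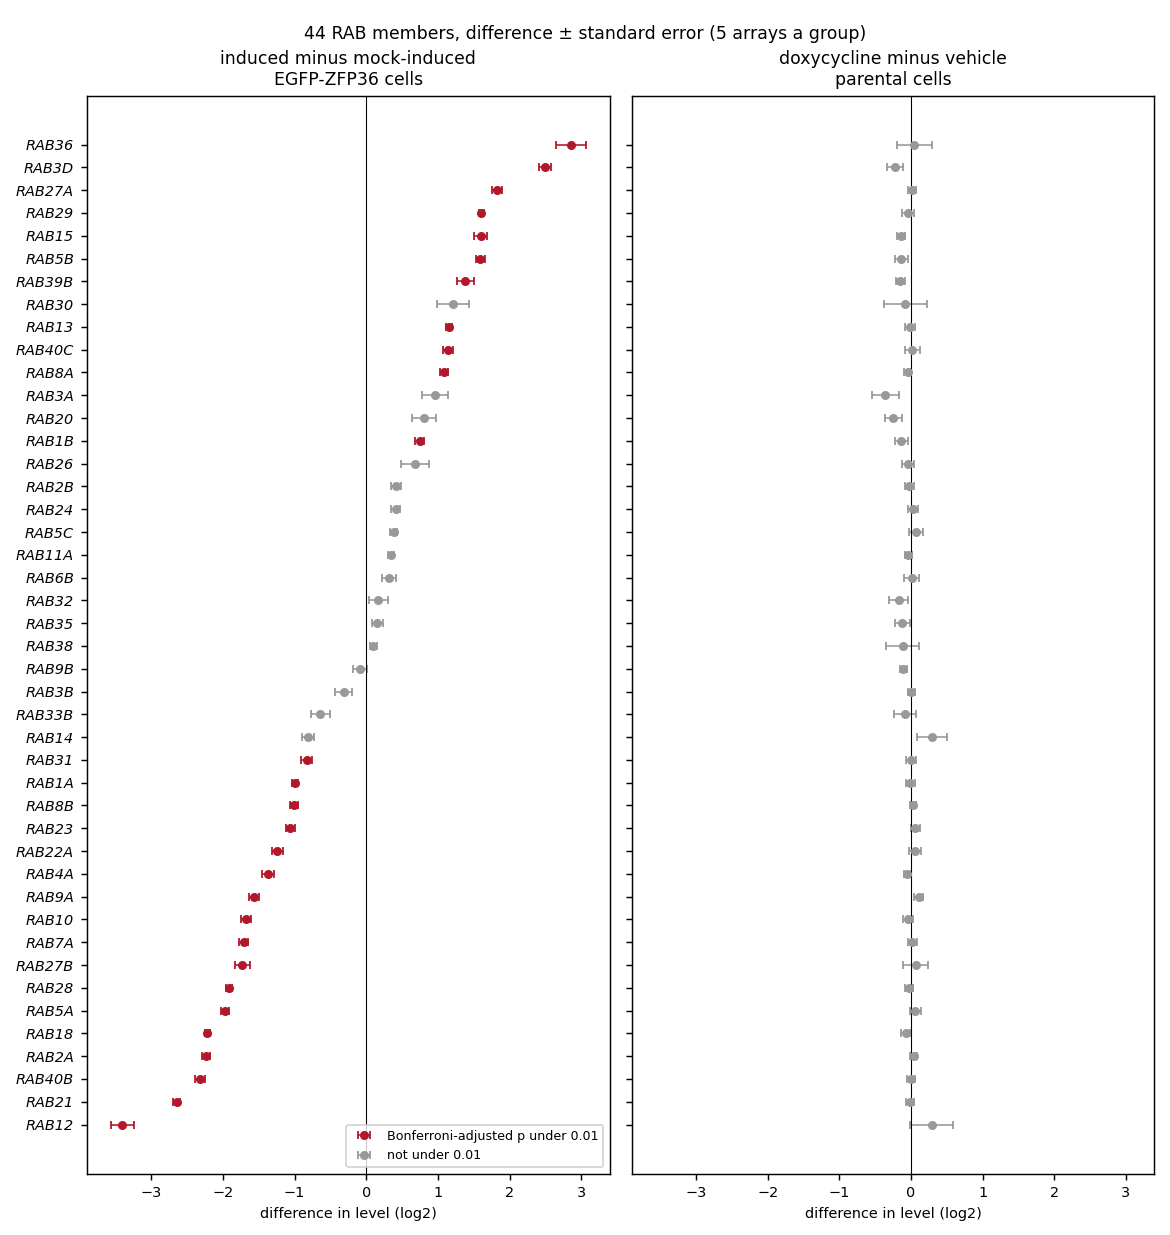
Difference in level (log2) of the 44 RAB members tested, with standard errors, in EGFP-ZFP36 cells (induced minus mock-induced, left) and parental cells (doxycycline minus vehicle, right); genes run from the largest rise to the largest fall after induction and red marks an adjusted p under 0.01. On the left the members spread between −3.41 for RAB12 and 2.86 for RAB36, while on the right none passed the test.

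Among the RABs grouped under endoplasmic reticulum and Golgi, 10 of 14 were tested, of which 3 fell, 3 rose and 4 did not pass. Of all genes tested, 23.1% were lower and 28.8% higher. Each count by transport step, here and below, is read beside these shares, rests on few genes and was not tested. RAB2A, which acts in transport between endoplasmic reticulum and Golgi, read 9.44, 9.40, 9.30, 9.49 and 9.51 on the induced arrays, against 11.78, 11.61, 11.55, 11.69 and 11.70 on the mock-induced arrays. Its difference was −2.24 (SE 0.06, adjusted p = 7.11e-09), a 4.72-fold fall, without overlap. RAB18, known from lipid droplets and the endoplasmic reticulum, read 9.72, 9.79, 9.75, 9.69 and 9.69 on the induced arrays, against 11.96, 11.92, 11.93, 11.96 and 11.96 on the mock-induced arrays. The groups were far apart for this probe set, with a difference of −2.22 (SE 0.04, adjusted p = 1.16e-10), but the other RAB18 probe sets gave −0.96, −0.22 and 0.66. RAB36, a Golgi RAB, read 7.995, 7.85, 7.87, 8.18 and 7.91 on the induced arrays, against 4.86, 5.53, 4.77, 5.76 and 4.59 on the mock-induced arrays. The mock-induced levels lay just above 4.5 and varied more than the induced ones. RAB36 rose by 2.86 (SE 0.21, adjusted p = 0.000381), the largest rise of a member on the brightest probe sets. RAB39B, a neuronal RAB, averaged 9.47 in induced cells, against 8.08 in mock-induced cells, and rose by 1.38 (SE 0.12). RAB30 averaged 4.99 ± 0.44 in induced cells, against 3.78 ± 0.35 in mock-induced cells (SD, n = 5 each), and RAB6B 6.24 and 5.93, and neither difference passed.

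Of the early endosome RABs, 9 of 11 were tested, of which 5 fell, 1 rose and 3 did not pass. The shares of all genes tested were 23.1% lower and 28.8% higher. RAB21, which sorts integrins on early endosomes, read 7.99, 7.85, 7.82, 7.91 and 7.83 on the induced arrays, against 10.52, 10.60, 10.47, 10.56 and 10.48 on the mock-induced arrays. The spread within each group was small beside this gap, and the difference of −2.65 (SE 0.05, adjusted p = 1.69e-10) was a 6.26-fold fall. RAB4A, which acts in fast recycling from early endosomes, averaged 10.73 in induced cells, against 12.09 in mock-induced cells, a fall of 1.37 on the log2 scale (SE 0.08), and its other probe sets gave 0.18 and −4.18. RAB22A and RAB31 form 1 subfamily and act between early endosomes and the trans-Golgi network. RAB22A read 8.61, 8.43, 8.36, 8.54 and 8.38 on the induced arrays, against 9.80, 9.74, 9.47, 9.82 and 9.70 on the mock-induced arrays, and its difference was −1.24 (SE 0.08, adjusted p = 7.35e-05). RAB31 read 9.82, 9.77, 9.42, 9.51 and 9.52 on the induced arrays, against 10.46, 10.46, 10.39, 10.46 and 10.44 on the mock-induced arrays, and its difference was −0.83 (SE 0.08, adjusted p = 0.00436). Both genes of this pair fell, but the call of RAB31 was lost when any of 8 of the 10 arrays was left out (adjusted p 0.0103 to 0.0300): each mock-induced array, and induced replicates 3, 4 and 5. RAB20 and RAB24 differed by 0.81 (SE 0.16) and 0.41 (SE 0.07) and did not pass.

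Of the recycling and post-Golgi RABs, 11 of 13 were tested, of which 5 fell, 3 rose and 3 did not pass. RAB12, which acts in the degradation of transferrin receptor and in autophagy, had the lowest difference of a member on the brightest probe sets. It read 4.09, 4.69, 4.04, 4.52 and 4.86 on the induced arrays, against 8.16, 7.78, 7.64, 7.87 and 7.79 on the mock-induced arrays. The induced levels lay around the limit of 4.5, where signal and background are hard to separate, and the difference was −3.41 (SE 0.16, adjusted p = 5.14e-06). The other RAB12 probe set gave 0.33 (SE 0.20), which did not pass, so the call of RAB12 rests on 1 probe set. RAB15, which controls recycling of transferrin receptor, went the other way. Its induced arrays read 8.06, 7.75, 7.68, 8.05 and 7.64, against 6.12, 6.25, 6.20, 6.32 and 6.28 on the mock-induced arrays, a difference of 1.60 (SE 0.09, adjusted p = 3.18e-05). RAB28, a RAB of cilia, averaged 9.48 in induced cells, against 11.40 in mock-induced cells, a fall of 1.92 on the log2 scale (SE 0.04). RAB10, which delivers glucose transporter vesicles to the surface, averaged 10.40 in induced cells, against 12.08 in mock-induced cells, a fall of 1.68 (SE 0.07), while its other probe set read higher, 10.43 in induced cells against 9.64 in mock-induced cells, a difference of 0.80 (SE 0.09, limma adjusted p = 0.0365 over all probe sets tested) outside the threshold. RAB13, a RAB of tight junctions, averaged 12.86 in induced cells, against 11.71 in mock-induced cells, and rose by 1.16 (SE 0.04). RAB14, RAB11A and RAB35 differed by −0.81 (SE 0.09), 0.34 (SE 0.04) and 0.16 (SE 0.07) and did not pass. However, the other probe sets of RAB11A fell by 2.59 and 3.13, and the other probe set of RAB14 gave −1.44, which passed.

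Of the late endosome and lysosome RABs, 6 of 7 were tested, of which 2 fell, 1 rose and 3 did not pass. RAB7A, which directs late endosomes to lysosomes, read 8.80, 8.78, 8.69, 8.82 and 8.62 on the induced arrays, against 10.41, 10.46, 10.32, 10.53 and 10.54 on the mock-induced arrays. It fell by 1.71 on the log2 scale (SE 0.06, adjusted p = 1.72e-07), without overlap. RAB9A, which returns mannose 6-phosphate receptors to the Golgi, averaged 9.68 ± 0.14 in induced cells, against 11.25 ± 0.09 in mock-induced cells, a fall of 1.57 (SE 0.07, adjusted p = 3.83e-06). Its paralogue RAB9B averaged 5.88 ± 0.21 in induced cells, against 5.96 ± 0.11 in mock-induced cells (SD, n = 5 each), with overlapping arrays. RAB29, a Golgi and lysosome RAB that recruits the kinase LRRK2, read 12.05, 12.11, 12.05, 12.09 and 12.09 on the induced arrays, against 10.44, 10.52, 10.40, 10.50 and 10.47 on the mock-induced arrays. It rose by 1.61 (SE 0.04, adjusted p = 5.60e-09), 3.05-fold. The related RAB32 and RAB38, which serve lysosome-related organelles such as melanosomes, differed by 0.17 (SE 0.13) and 0.10 (SE 0.05), did not pass and overlapped between the groups.

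Of the RABs of regulated secretion, 6 of 8 were tested, of which 1 fell, 2 rose and 3 did not pass. RAB3D, a RAB of secretory granules, read 7.86, 7.78, 8.02, 8.10 and 7.87 on the induced arrays, against 5.40, 5.21, 5.60, 5.39 and 5.57 on the mock-induced arrays. It rose by 2.49 (SE 0.09, adjusted p = 1.68e-07), 5.62-fold, and every induced array lay above every mock-induced one. RAB3A and RAB3B, known from synaptic vesicles, did not pass: RAB3A averaged 5.60 ± 0.19 in induced cells, against 4.64 ± 0.42 in mock-induced cells, and RAB3B averaged 6.06 ± 0.27 in induced cells, against 6.37 ± 0.11 in mock-induced cells (SD, n = 5 each). RAB26 differed by 0.68 (SE 0.19) and did not pass.

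In some subfamilies one member fell while another rose. The 10 subfamilies with at least 2 members tested give 16 pairs, and 5 of these (31.2%) were called in opposite directions, against 19.8% of all pairs of members tested and 13.3% of all pairs of genes tested. The subfamily pairs share members, and their share was not tested. The first of these pairs belongs to RAB5, the regulator of early endosome fusion. RAB5A read 10.06, 10.15, 10.18, 10.23 and 10.20 on the induced arrays, against 12.20, 12.14, 12.03, 12.26 and 12.05 on the mock-induced arrays, and fell by 1.97 (SE 0.06, adjusted p = 2.21e-08). RAB5B read 9.54, 9.59, 9.75, 9.69 and 9.57 on the induced arrays, against 7.92, 7.98, 8.16, 8.15 and 7.98 on the mock-induced arrays, and rose by 1.59 (SE 0.06, adjusted p = 9.09e-07). The third, RAB5C, averaged 10.35 ± 0.09 in induced cells, against 9.97 ± 0.07 in mock-induced cells (SD, n = 5 each), a difference of 0.38 (SE 0.06) that did not pass. A difference between 2 genes taken within each array does not depend on the scaling of the array, and that of RAB5A minus RAB5B changed by −3.56 (SE 0.08). Here and in the pairs below, the direction and lack of overlap of such a change follow from the 2 genes' own differences and add no support.

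RAB1A and RAB1B, which carry traffic out of the endoplasmic reticulum, formed the second pair. RAB1A read 11.97, 11.90, 12.01, 11.93 and 11.80 on the induced arrays, against 12.86, 12.93, 12.91, 12.94 and 12.93 on the mock-induced arrays, and fell by 0.99 (SE 0.05, adjusted p = 5.24e-06). RAB1B read 9.30, 9.31, 9.25, 9.49 and 9.18 on the induced arrays, against 8.56, 8.68, 8.43, 8.57 and 8.56 on the mock-induced arrays, and rose by 0.75 (SE 0.07, adjusted p = 0.00264). The change was modest for RAB1B, and its call was lost when any of 7 of the 10 arrays was left out (adjusted p 0.0110 to 0.0179): induced replicates 1, 2 and 3, and mock-induced replicates 1, 3, 4 and 5. Centred on poly-A controls it was 0.38 and did not pass. The within-array difference of RAB1A minus RAB1B changed by −1.74 (SE 0.06).

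RAB8A and RAB8B deliver vesicles to the cell surface and the cilium. RAB8A read 11.95, 11.83, 11.83, 11.95 and 11.80 on the induced arrays, against 10.81, 10.90, 10.71, 10.84 and 10.69 on the mock-induced arrays, and rose by 1.08 (SE 0.05, adjusted p = 9.84e-06). RAB8B read 9.73, 9.65, 9.79, 9.61 and 9.60 on the induced arrays, against 10.71, 10.78, 10.62, 10.65 and 10.66 on the mock-induced arrays, and fell by 1.01 (SE 0.05, adjusted p = 1.28e-05). The within-array difference of RAB8A minus RAB8B changed by 2.09 (SE 0.05). Neither gene overlapped between the groups, while the rise of RAB8A was 0.72 and did not pass when centred on poly-A controls (adjusted p = 0.256).

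RAB40B and RAB40C carry a SOCS box and recruit a ubiquitin ligase. RAB40B read 8.79, 8.86, 8.81, 8.55 and 8.51 on the induced arrays, against 11.04, 11.07, 11.00, 10.99 and 11.05 on the mock-induced arrays, and fell by 2.32 (SE 0.07, adjusted p = 5.56e-08). RAB40C read 11.17, 11.11, 11.10, 10.91 and 11.08 on the induced arrays, against 9.96, 10.06, 9.92, 9.73 and 10.00 on the mock-induced arrays, and rose by 1.14 (SE 0.07, adjusted p = 6.64e-05). Neither gene overlapped between the groups, and the within-array difference of RAB40B minus RAB40C changed by −3.47 (SE 0.07). The rise of RAB40C was 0.78 when centred on poly-A controls (adjusted p = 0.0533).

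RAB27A and RAB27B act in secretion of lytic granules, melanosomes and exosomes. RAB27A read 9.19, 8.87, 8.91, 9.21 and 9.08 on the induced arrays, against 7.14, 7.30, 7.22, 7.17 and 7.31 on the mock-induced arrays, and rose by 1.82 (SE 0.07, adjusted p = 1.03e-06). RAB27B read 6.26, 5.91, 5.67, 5.73 and 5.82 on the induced arrays, against 7.77, 7.51, 7.57, 7.69 and 7.50 on the mock-induced arrays, and fell by 1.73 (SE 0.11, adjusted p = 6.73e-05). This pair stands on the brightest probe set of RAB27A, and the other probe sets of that gene went the opposite way. For RAB2A, whose fall is given above, the paralogue RAB2B averaged 9.01 ± 0.10 in induced cells, against 8.60 ± 0.12 in mock-induced cells (SD, n = 5 each), a difference of 0.42 (SE 0.07) that did not pass.

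**Figure D2:**
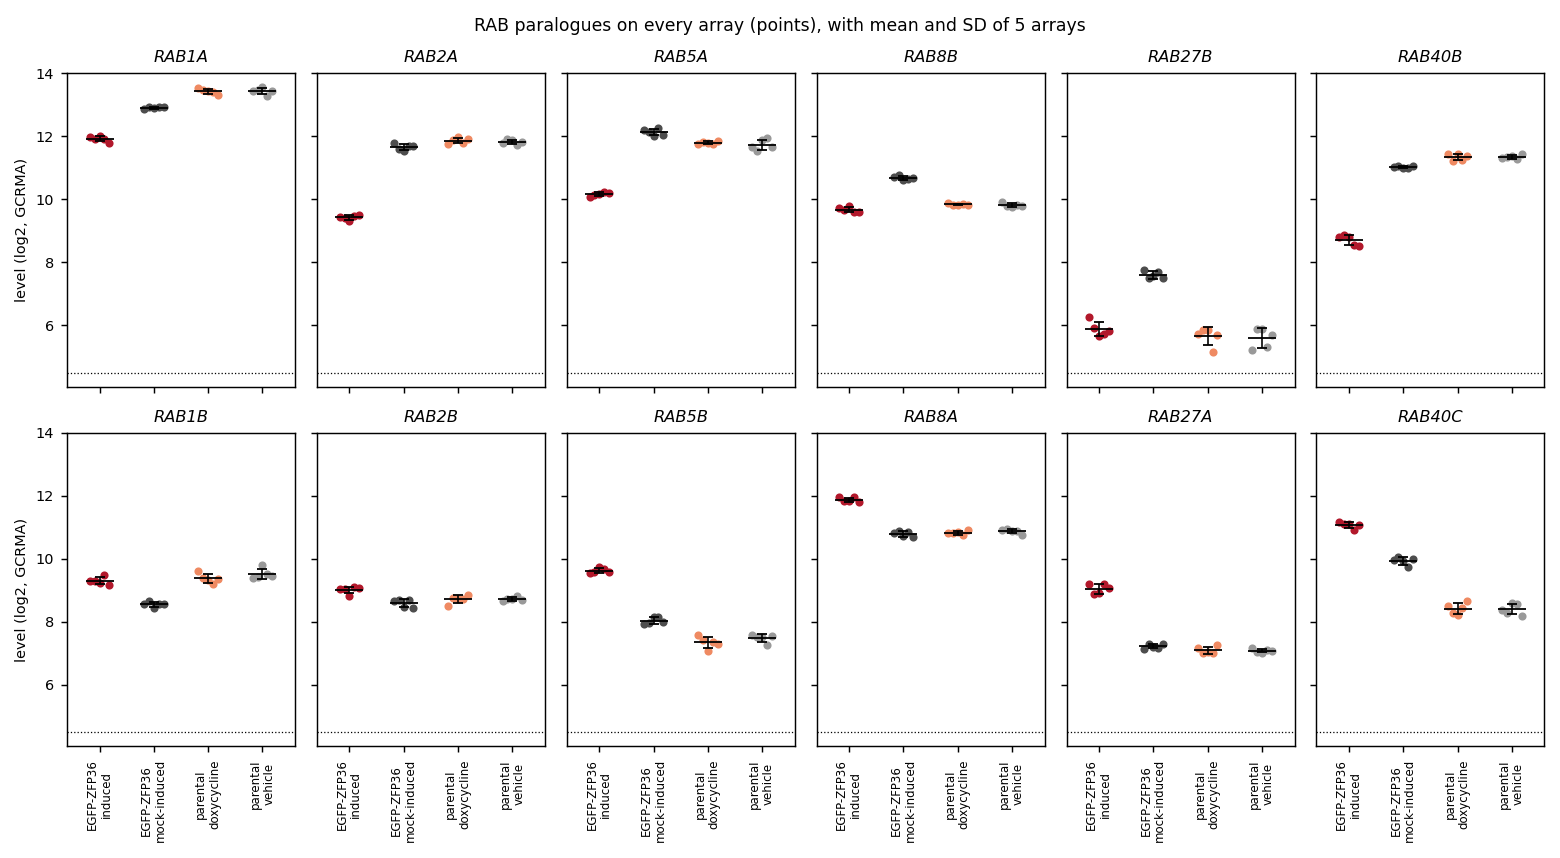
Levels (log2, GCRMA) of 6 pairs of RAB paralogues on every array, with mean and SD of the 5 arrays of each group; the dotted line marks 4.5. The upper genes read lower after induction than in mock-induced cells, without overlap, and the lower genes read higher without overlap, although RAB2B did not pass the test.

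Probe sets of the same member did not always move alike. With each probe set fitted on its own (18639 above the filter, 82 of them for members), 25 members had at least 2 probe sets above the filter. All probe sets had the same sign for 17 of these and differed in sign for 8. The share of all genes whose probe sets differ in sign was not counted, so these counts show nothing particular to RAB members. RAB27A was the 1 member called in both directions, which is 4% of the members with at least 2 probe sets and compares with 3.66% of all such genes. Its brightest probe set rose by 1.82, and 2 others fell by 2.53 (SE 0.06) and 2.65 (SE 0.20), averaging 5.23 and 4.72 in induced cells and 7.76 and 7.37 in mock-induced cells. RAB11A, the recycling endosome RAB, is an example where the brightest probe set did not pass, at 0.34, while the other probe sets fell by 2.59 (SE 0.05) and 3.13 (SE 0.09). The probe sets of RAB18 gave −2.22, −0.22, −0.96 and 0.66, of which −2.22 and −0.96 passed. For RAB4A they gave −1.37, 0.18 and −4.18, of which −1.37 and −4.18 passed. RAB12 gave 0.33 and RAB10 gave 0.80 on their other probe set, neither passing, against −3.41 and −1.68 on the brightest. RAB3B rose by 2.02 (SE 0.10) on its dimmer probe set. For RAB21, RAB5A, RAB2A, RAB28, RAB1A, RAB23, RAB29, RAB15 and RAB39B every probe set passed in the same direction. Counting a member only where each of its probe sets above the filter passed, an alternative chosen after seeing the data, 9 members fell and 10 rose, against 14.2% of all genes lower and 19.4% higher by the same count. The sign for RAB18, RAB10, RAB12, RAB4A, RAB27A, RAB11A, RAB3B and RAB35 therefore depends on the probe set read, and which transcript forms the probe sets detect was not tested.

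**Figure D3:**
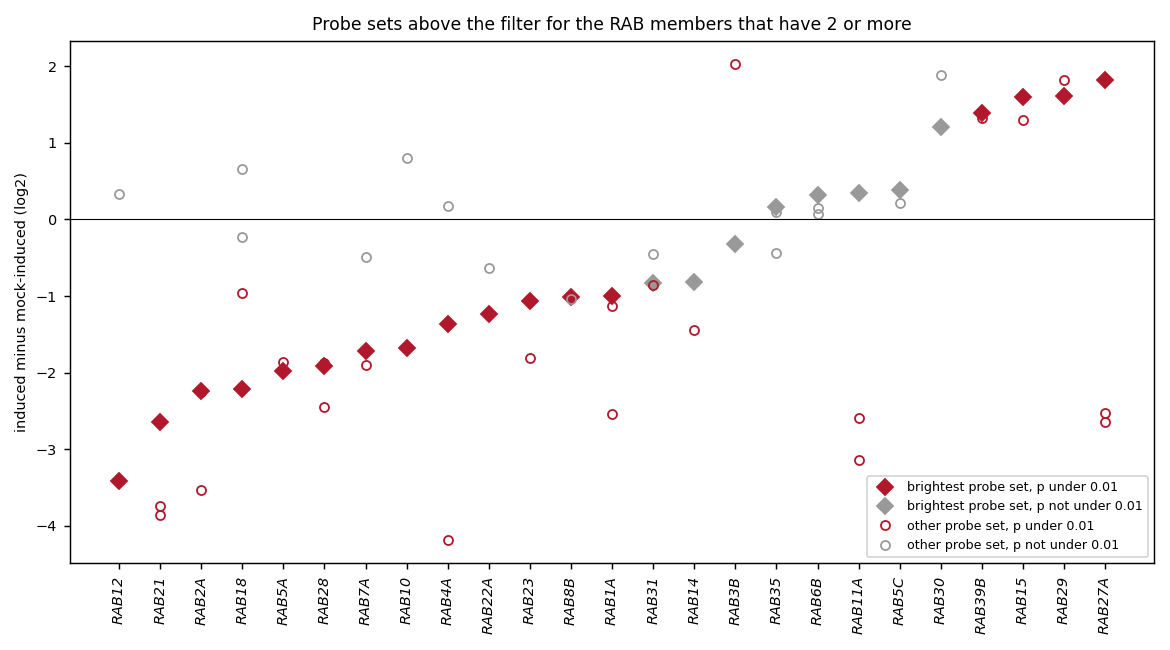
Difference (induced minus mock-induced, log2) of each probe set above the filter for the 25 RAB members that have at least 2; filled diamonds are the brightest probe set of a gene, open circles the others, and red marks an adjusted p under 0.01. RAB27A has a red diamond at 1.82 and red circles at −2.53 and −2.65.

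In parental cells doxycycline moved no member past the test. None of 44 members and 0% of the 10834 genes tested passed with limma at a Bonferroni-adjusted p under 0.01. With an unadjusted p under 0.05 there were 3 members, RAB15, RAB39B and RAB9B, against 2.22% of all genes, and no member passed under any other setting run. RAB15 had the smallest p of a member. It read 7.20, 7.13, 7.08, 7.06 and 7.15 in parental doxycycline cells, against 7.19, 7.39, 7.36, 7.17 and 7.18 in parental vehicle cells. These arrays overlapped, and the difference was −0.14 (SE 0.06, unadjusted p = 0.0356, exact two-sided permutation p = 0.0317). The median over the members was −0.02. Parental cells have no green fluorescence to sort for, so this comparison does not cover that step.

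The difference itself, induced minus mock-induced less parental doxycycline minus vehicle, was tested over all 20 arrays. It was negative for 17 members and positive for 11, against 22.1% and 25.8% of all genes tested. The values ranged between −3.70 for RAB12, whose other probe set had the opposite sign after induction, and 2.81 for RAB36, which read under 4.5 on every parental array. RAB5A and RAB5B gave −2.03 and 1.73, RAB8B and RAB8A −1.04 and 1.13, RAB1A and RAB1B −0.98 and 0.88, RAB40B and RAB40C −2.32 and 1.12, and RAB27B and RAB27A −1.79 and 1.81. Every one of these 10 values passed the test. Centred on poly-A controls, 8 negative and 3 positive members passed.

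Levels also differed between the lines without doxycycline. Per the methods, the lines were split at different dilutions and grown for different times before treatment, and mock-induced cells were sorted with fluorescent cells excluded. Line, culture and sorting therefore cannot be told apart in this comparison. Mock-induced EGFP-ZFP36 cells, compared with parental vehicle cells, were lower for 6 members and higher for 8, against 10.9% and 13.2% of all genes tested. These counts use the brightest probe sets, and other probe sets can differ. For example, the brightest probe sets of RAB10 and RAB11A did not pass, while others of RAB10 (−1.16) and RAB11A (0.78 and 1.19) did when fitted on their own. The arrays did not overlap for 29 of 44 members and for 63.3% of all genes. RAB38 differed most. It read 8.68, 8.56, 8.71, 8.62 and 8.59 in mock-induced cells, against 3.09, 3.65, 3.66, 3.43 and 3.51 in parental vehicle cells. All parental arrays were under 4.5, so RAB38 was at least 17.5-fold higher in mock-induced cells, counted from 4.5 (adjusted p = 4.89e-10). RAB27B read 7.77, 7.51, 7.57, 7.69 and 7.50 in mock-induced cells, against 5.21, 5.87, 5.90, 5.33 and 5.68 in parental vehicle cells, and was higher by 2.01 (SE 0.14, adjusted p = 0.000208). RAB3B read 6.44, 6.25, 6.51, 6.39 and 6.27 in mock-induced cells, against 4.41, 4.37, 4.52, 4.33 and 4.42 in parental vehicle cells, and was higher by 1.96 (SE 0.06, adjusted p = 7.07e-08). For all 3 genes every mock-induced array lay above every parental vehicle array. RAB40C, RAB18, RAB22A, RAB8B and RAB31 were higher by 1.53, 1.47, 1.39, 0.87 and 0.63.

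RAB3D read 5.40, 5.21, 5.60, 5.39 and 5.57 in mock-induced cells, against 7.95, 7.76, 8.15, 7.58 and 7.72 in parental vehicle cells, and was lower by 2.40 on the log2 scale (SE 0.11, adjusted p = 4.69e-06). RAB32 read 5.17, 5.14, 5.47, 4.88 and 5.33 in mock-induced cells, against 7.06, 7.04, 7.27, 6.66 and 6.77 in parental vehicle cells, and was lower by 1.76 (SE 0.13, adjusted p = 0.000682). The subfamily partners RAB32 and RAB38 therefore differed between the lines in opposite directions. RAB15 averaged 6.24 ± 0.08 in mock-induced and 7.26 ± 0.11 in parental vehicle cells (SD, n = 5 each), a difference of −1.02 (SE 0.06, adjusted p = 6.23e-05). RAB1B, RAB9B and RAB1A were lower by 0.96, 0.71 and 0.53 on the log2 scale. The number of lower members was 3 in place of 6 without mock-induced replicate 1 or without mock-induced replicate 5, and 3 lower and 4 higher when centred on poly-A controls. Among the HEK293 markers, KRT19 averaged 9.55 in mock-induced and 2.23 in parental vehicle cells, and NEFM averaged 3.87 in mock-induced and 12.27 in parental vehicle cells. These opposite differences offset each other in the summed marker level, and their part in these results was not tested.

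**Figure D4:**
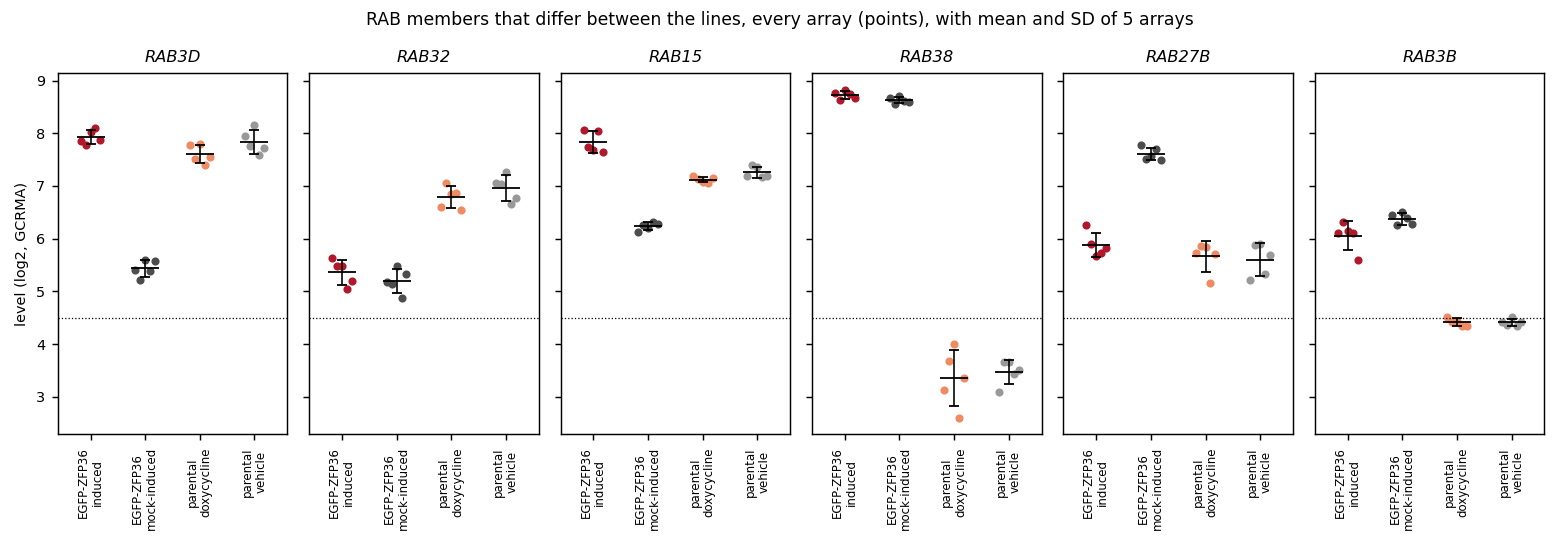
Levels (log2, GCRMA) of the 3 RAB members with the largest called differences in each direction between mock-induced and parental vehicle cells, on every array of the 4 groups, with mean and SD; the dotted line marks 4.5. RAB38 lies between 8.56 and 8.83 in all EGFP-ZFP36 arrays and under 4.5 in all parental arrays.

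Of the 10 members called both after induction and between the lines, 6 had an induced mean within 0.4 of both parental means on the log2 scale: RAB1B, RAB3D, RAB8B, RAB22A, RAB27B and RAB31. The same share over all genes called in both comparisons was not counted, so whether this is particular to RAB members is not known. RAB3D averaged 7.93 in induced and 5.44 in mock-induced cells, beside 7.61 in doxycycline-treated and 7.83 in vehicle-treated parental cells. RAB22A averaged 8.47 in induced and 9.70 in mock-induced cells, beside 8.37 in doxycycline-treated and 8.32 in vehicle-treated parental cells. RAB27B averaged 5.88 in induced and 7.61 in mock-induced cells, beside 5.66 in doxycycline-treated and 5.60 in vehicle-treated parental cells. RAB8B averaged 9.67 in induced and 10.69 in mock-induced cells, beside 9.84 in doxycycline-treated and 9.81 in vehicle-treated parental cells. RAB1B averaged 9.30 in induced and 8.56 in mock-induced cells, beside 9.38 in doxycycline-treated and 9.52 in vehicle-treated parental cells. RAB1B, RAB8B and RAB27B belong to 3 of the 5 pairs called in opposite directions. For RAB31 the means were 9.61 in induced and 10.44 in mock-induced cells, beside 9.81 in each parental group. Both comparisons use the same mock-induced arrays, so their values are given side by side and are not independent. RAB21 and RAB29, in contrast, differed from the other groups in the induced cells. RAB21 averaged 7.88 in induced and 10.53 in mock-induced cells, beside 10.08 in doxycycline-treated and 10.09 in vehicle-treated parental cells, and RAB29 averaged 12.08 in induced and 10.47 in mock-induced cells, beside 10.67 in doxycycline-treated and 10.71 in vehicle-treated parental cells.

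Genes that load, switch off, anchor or read RAB proteins were counted in lists drawn from general knowledge. Of 11 genes tested for prenylation and membrane extraction, 3 fell and 4 rose. CHML, a RAB escort protein, averaged 10.92 in induced cells, against 13.03 in mock-induced cells, and fell by 2.11 (SE 0.07), and RABGGTB, the beta subunit of the RAB geranylgeranyl transferase, averaged 9.61 in induced cells, against 11.42 in mock-induced cells, and fell by 1.82 (SE 0.08). YIPF1 and PRAF2, of the membrane protein families that bind RABs, rose by 1.80 (SE 0.07) and 1.33 (SE 0.09). Of 46 exchange factor genes tested, 8 fell and 12 rose, with a median of 0.24. The DENN domain genes led both directions, with DENND5B and DENND6A falling by 1.78 (SE 0.14) and 1.56 (SE 0.05) and DENND4A and DENND2C rising by 2.04 (SE 0.09) and 1.98 (SE 0.08).

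Of 35 GTPase-activating protein genes tested, 3 fell and 17 rose, with a median of 0.54. TBC1D5, which acts on RAB7, averaged 5.87 in induced cells, against 8.09 in mock-induced cells, and fell by 2.22 (SE 0.06), and EVI5, which acts on RAB11, fell by 1.53 (SE 0.07). TBC1D13 averaged 10.62 in induced cells, against 8.60 in mock-induced cells, and rose by 2.01 (SE 0.06), and TBCK rose by 1.90 (SE 0.07). Of 63 effector genes tested, 16 fell and 25 rose, with a median of 0.57. BICD1, the dynein adaptor that binds RAB6, averaged 5.60 in induced cells, against 8.68 in mock-induced cells, and fell by 3.08 (SE 0.15). EEA1, the endosomal tether bound by RAB5, averaged 9.08 in induced cells, against 11.25 in mock-induced cells, and fell by 2.17 (SE 0.06). SYTL1, an effector of RAB27, averaged 5.89 in induced cells and was under 4.5 on every mock-induced array, so that it was at least 2.62-fold higher. RUBCN, which binds RAB7, rose by 2.37 (SE 0.08). Of 35 SNARE and tether genes tested, 7 fell and 15 rose, with a median of 0.49. BET1, a SNARE between endoplasmic reticulum and Golgi, and STX7, a late endosome SNARE, fell by 2.75 (SE 0.07) and 2.74 (SE 0.11), and SNAP25 and STX4, SNAREs of the plasma membrane, rose by 2.42 (SE 0.17) and 1.98 (SE 0.09). The lists hold many genes whose direction differs from that of the list as a whole, and their shares are read beside the 23.1% lower and 28.8% higher of all genes tested.

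The annotated gene span in GRCh38.p14 was set beside the calls as a description, with no test. It had a median of 45.4 kb over the 17 members that fell (21.4 to 178 kb), 22.3 kb over the 11 that rose (6.26 to 116 kb) and 26.9 kb over the 16 that did not pass (2.52 to 372 kb). Over all genes tested the medians were 45.5 kb for those that fell, 28.45 kb for those that rose and 29.996 kb for those that did not pass.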

How the data were processed

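Members, gene lists and tests were chosen with earlier results of these data known. GCRMA, in an unstated version, was the authors' normalization, and the deposited file holds log2 levels of 50441 probe sets on 20 arrays. Gene names of probe sets follow the platform annotation. The 57 members have 130 probe sets, and 22 members have only 1. The brightest probe set, by its mean over all arrays, stands for a gene. Genes averaging above 4.5 in at least 1 group were tested with limma 3.58.1 (lmFit and eBayes) in R 4.3.3 on the 2 groups compared, and on all 20 arrays for the interaction, at a Bonferroni-adjusted p under 0.01. Fits were tested on simulated data. The SE is limma's moderated one or, for a within-array difference, that of the 2 group means. Exact permutation tests of 5 against 5 arrays have a smallest two-sided p of 0.00794. Folds against a group under 4.5 on every array are counted from 4.5. Site sequences came from the study's site table, held in part and searched for members without chromosome 8. Per the methods, replicates of each line were prepared on 5 separate days, with treated and untreated cells each day, and the number of arrays limits precision. Alternatives were the mean of all probe sets, probe sets without shared-sequence suffixes, no filter, centring on hybridization or poly-A controls, quantile normalization, Benjamini-Hochberg adjustment, 1 model of all arrays, a spread for each group, the replicate number as a block, and leaving out each array. Named are the 6 largest called falls and rises after induction without overlap, all members of subfamilies with at least 2 tested, the parental comparison's smallest p, the 3 largest called differences each way between lines, members with a listed site and, from each list, the 2 largest called falls and rises; other members were named after their values were seen. Python 3.11.15 made the tables and figures.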

Additional observations from a re-analysis of the deposited data

Results flagged for a closer look

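Groups of 5 arrays were checked for a lone array only in the 30 members named by the rules above, 113 groups in all. In 4 of these, 1 array stood apart from the other 4 by Dixon's test (ratio above 0.71). Chance gives this in about 1 in 20 groups. Other members were not checked, among them RAB10, which read 12.23 in mock-induced replicate 5, against 12.03 to 12.05 in the others of its group. RAB29 read 10.89 in parental vehicle replicate 4, above the others of its group (ratio 0.781), and RAB5B read 7.25 there, below the others (ratio 0.825). RAB27B read 5.16 in parental doxycycline replicate 4, below the others (ratio 0.778). RAB2B read 8.84 in induced replicate 3, below the others (ratio 0.722).

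By limma's test of the interaction over all arrays, 28 members passed, 17 negative (38.6%) and 11 positive (25%). Among all genes tested, 22.1% were negative and 25.8% positive. The difference tested is induced minus mock-induced less parental doxycycline minus vehicle. Only induced cells were sorted for green fluorescence, so that ZFP36 level, sorting and cell density cannot be told apart in this difference. The difference was negative for the early endosome RABs RAB21 (−2.63), RAB5A (−2.03), RAB4A (−1.31), RAB22A (−1.29) and RAB31 (−0.83). It was negative as well for the endoplasmic reticulum and Golgi RABs RAB2A (−2.27), RAB18 (−2.14) and RAB1A (−0.98), and for RAB12 (−3.70), RAB28 (−1.89), RAB10 (−1.63), RAB23 (−1.12) and RAB8B (−1.04) of recycling and post-Golgi transport. RAB7A (−1.73) and RAB9A (−1.67) of late endosomes, RAB27B (−1.79) of secretion and RAB40B (−2.32) complete the negative values. Positive values were found for RAB36 (2.81), RAB39B (1.53) and RAB1B (0.88), grouped under endoplasmic reticulum and Golgi, and for RAB3D (2.71) and RAB27A (1.81) of secretion. RAB15 (1.73), RAB13 (1.18) and RAB8A (1.13) of recycling and post-Golgi transport, RAB5B (1.73), RAB29 (1.65) and RAB40C (1.12) complete the positive values.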

How the results depend on the processing

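Under other settings than leaving out an array, calls of the 22 named members called after induction stayed on the same side with the same sign in 192 instances, were lost in 20 and changed sign in 2. The sign changed for RAB18 without _s_at and _x_at probe sets (0.66) and for RAB27A with the mean of all probe sets (−1.12, adjusted p = 0.000105). In the comparison of induced with mock-induced cells, centring moves every gene alike, by −0.36 on poly-A and −0.12 on hybridization controls. Small positive differences in that comparison change sign by construction: RAB32 read −0.19 and RAB38 −0.26 on poly-A controls, and RAB38 −0.018 on hybridization controls. These shifts do not apply to the line and interaction comparisons. The 17 lower members after induction became 10 with a separate spread for each group and 9 where every probe set had to pass. The 11 higher members became 7 without _s_at and _x_at probe sets, 7 with a separate spread and 20 with a Benjamini-Hochberg adjusted p under 0.05. The counts over all genes moved as well, from 2500 lower and 3123 higher of 10834. They were 1267 and 1635 with a separate spread, and 4023 and 5476 with Benjamini-Hochberg adjustment. Without _s_at and _x_at probe sets they were 2166 and 2166 of 8502. Against parental vehicle cells, the 6 lower members became 3 without _s_at and _x_at probe sets, 2 without the filter, 3 centred on poly-A controls, 15 with Benjamini-Hochberg adjustment and 2 with a separate spread, and the 8 higher members became 4 centred on poly-A controls and 18 with Benjamini-Hochberg adjustment. For the interaction, the 17 negative members became 8 centred on poly-A controls, and the 11 positive members became 7 without _s_at and _x_at probe sets, 7 centred on hybridization controls, 3 on poly-A controls and 19 with Benjamini-Hochberg adjustment. The cause of these shifts was not tested, apart from the smaller number of members tested without _s_at and _x_at probe sets (34 of 44). For the line and interaction comparisons, counts over all genes under these settings are not given here, so nothing particular to RAB members can be read from them.

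Leaving out each array in turn gave 16 to 17 lower and 9 to 11 higher members after induction, 0 in parental cells, 3 to 6 lower and 7 to 8 higher against parental vehicle cells, and 16 to 17 negative and 10 to 11 positive interactions. Per the methods, the EGFP-ZFP36 experiment, with flasks of both treatments, was repeated on 5 days, and parental samples were pairs of treated and untreated cells. Both comparisons are thus paired by day, but no label ties a replicate number to a day. Replicate numbers were not treated as pairs, since deviations of same-numbered induced and mock-induced arrays correlated at 0.16, 0.02, 0.13, 0.22 and 0.18 and those of parental arrays at −0.05, −0.06, 0.18, 0.12 and −0.04, and 3 of 5 and 2 of 5 arrays correlated best with their own number. With the replicate block, 16 members were lower and 9 higher after induction, 0 passed in parental cells, 2 were lower and 4 higher against parental vehicle cells, and the interaction gave 16 negative and 10 positive. Low levels limit the reading of members near 4.5, such as RAB12 in induced cells.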

Other observations

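Neighbouring GTPase families were counted in the same way. Of 12 ARF and ARL genes tested, small GTPases of coat recruitment and Golgi tethering, 6 fell and 3 rose after induction, against 23.1% lower and 28.8% higher of all genes tested. ARF6, which acts at the plasma membrane and endosomes, averaged 9.26 ± 0.16 in induced cells, against 12.45 ± 0.08 in mock-induced cells (SD, n = 5 each) and fell by 3.18 on the log2 scale (SE 0.08). ARL1, which recruits golgins to the trans-Golgi, averaged 7.96 in induced cells, against 10.94 in mock-induced cells, and fell by 2.98 (SE 0.05). ARF3 and ARF5 rose by 1.01 (SE 0.07) and 1.00 (SE 0.07). Of 7 RAB-like genes tested, 3 fell and 2 rose, read against the same shares, among them RASEF and RABL3, which fell by 1.84 (SE 0.07) and 1.54 (SE 0.09), and IFT22, a subunit of the intraflagellar transport complex, and RABL6, which rose by 2.08 (SE 0.05) and 0.96 (SE 0.09).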
